A study of Mus musculus with 14 samples.

Results

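The genes described here are 10 biogenesis factors of PIWI-interacting RNAs (piRNAs) that work in the nuage of mouse male germ cells: Mael, Mov10l1, Pld6, Gtsf1, Henmt1, Pnldc1, Asz1, Gpat2, Ddx4 and Fkbp6. They were taken by gene symbol from a list of piRNA factors, drawn up with earlier results of these data known, and are 10 of the 31111 genes that stand in both count tables. Each had 1 row in each table, and all 10 passed the filter on low counts in every fit. Libraries of polyadenylated RNA were made from testis germ cells that had been sorted as spermatogonia (Spg) or spermatocytes (Spc), from mice labelled Dnmt3CKO/KO (KO) or wild type (WT). There were 3 Spg libraries of each genotype, from animals at postnatal day 14, and 4 Spc libraries of each genotype, from animals older than 20 days. DNMT3C is the DNA methyltransferase of rodents that methylates promoters of young retrotransposons in fetal male germ cells. The KO allele is constitutive, the study states that littermates were collected, and the background was C57Bl6/J. Spg were gated by the surface protein EpCAM and the absence of β2-microglobulin, and Spc by DNA content. A figure legend of the study states that KO Spc lack part of the meiotic stages and the round spermatids. The study also reports that KO germ cells arrest at the pachytene stage of meiosis, and that its WT Spc sort includes a later stage.

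piRNAs are small RNAs of the germ line that guide PIWI proteins to transposon RNA and, in fetal germ cells, to transposon promoters that are then methylated. The nuage is the granular material beside mitochondria, and later the chromatoid body, in which long precursors are brought together with the enzymes that cut, trim and methylate them. In meiosis, at the pachytene stage, male germ cells make a second and very abundant set of piRNAs from dedicated loci. Of the 10 genes, Ddx4 (also called Mvh or Vasa) encodes a DEAD-box RNA helicase, and Mael a protein of the nuage with a high-mobility-group box. Asz1 (GASZ) and Gpat2 encode proteins anchored in the outer mitochondrial membrane. Mov10l1 encodes the helicase that binds piRNA precursors, Pld6 (MitoPLD, Zucchini) the endonuclease of the mitochondrial surface, Pnldc1 the exonuclease that trims the 3′ end and Henmt1 the methyltransferase that protects that end. Gtsf1 encodes a zinc-finger partner of PIWI proteins and Fkbp6 a co-chaperone that works with HSP90 when piRNAs are loaded.

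Levels below are CPM, counts relative to library size, after scaling all 14 libraries with trimmed means of M-values (TMM). Tests are two-sided quasi-likelihood tests of edgeR with Benjamini-Hochberg adjustment over all genes and transposon subfamilies tested, and a gene is called at an adjusted p under 0.01. Library totals ran from 40555726 to 53323651 counts. The lowest count of any of the 10 genes in any library was 321 (Henmt1, KO Spc replicate 4) and the highest 77215 (Mael, WT Spc replicate 1), so that counting error was small against the spread between replicates. The sources used here do not say which part of the transcript the KO allele lacks, so the counts of Dnmt3c itself check no label: they were 58 to 116 in KO Spg, 53 to 89 in WT Spg, 52 to 57 in KO Spc and 11 to 28 in WT Spc, with no lower level in either KO group. KO and WT therefore mean the libraries that carry these labels.

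Markers of other stages and cell types moved with the groups, and their part in the results below was not tested. The summed CPM of 10 pachytene markers (such as Ldhc, Hspa2 and Pou5f2) was 12033 to 23102 in WT Spc but 318 to 497 in KO Spc, 198 to 231 in KO Spg and 406 to 2067 in WT Spg. The libraries labelled KO Spc thus stood near Spg for these markers, although their 9 early meiotic markers summed to 1370 to 2511 CPM, overlapping WT Spc (2111 to 2793) and above KO Spg (757 to 1193). Of these 9, Dmc1, Meiob, Prdm9 and Rad51ap2 were called higher in KO Spc than in WT Spc (log2 fold change 2.03 to 3.45), Spo11 (-2.06) and Syce1 (-3.08) were called lower, and Sycp1, Sycp3 and Hormad1 were not called. Spermatogonia markers summed to 474 to 1202 CPM in KO Spc and 38.7 to 298 in WT Spc, and spermatid markers to 3.03 to 9.78 and 262 to 1564. Markers of peritubular cells (321 to 3347 CPM in KO Spc, 32.9 to 44.7 in WT Spc), Leydig cells (57.3 to 356 and 14.1 to 30.4) and macrophages (26.7 to 145 and 3.17 to 7.14) were higher in every KO Spc library than in any WT Spc library, with all 6 genes of each list detected at a mean of 1 CPM or more in KO Spc. Those of Sertoli cells overlapped (301 to 1043 and 134 to 513 CPM), as did those of red blood cells (1.20 to 11.9 and 1.51 to 7.59). The 8 Sertoli genes had a median log2 fold change of 1.58 (KO over WT Spc), against 0.11 over all features. None was called, and 7 had an unadjusted p under 0.05 (edgeR), against 73.7% of all features. In Spg, Sertoli markers summed to 310 to 1088 CPM in WT and 418 to 1407 CPM in KO, highest in replicate 1 of each genotype. In bulk samples, fewer cells of a type and less RNA per cell cannot be told apart.

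Some libraries stood apart within their group. WT Spg replicate 2 had the highest pachytene marker sum of all Spg libraries (2067 CPM), so Spg values of the 10 genes are given with and without it. WT Spg replicates 1 and 3 (631 and 406 CPM) were also above every KO Spg library (198 to 231 CPM). Leaving out replicate 2 therefore does not remove the difference in these markers between the genotypes. In Spc, replicates 1 and 4 of the same genotype were more alike than any other pair: the chi-square of their counts per degree of freedom was 13.2 in KO and 17.9 in WT, against 152 to 345 in the other pairs of Spc replicates. They differed by more than counting error, which does not say whether they came from the same animals, and they entered the tests as separate samples and, in an alternative, summed. The study describes 3 biological replicates, and 4 Spc libraries per genotype were used here.

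**Figure D1:**
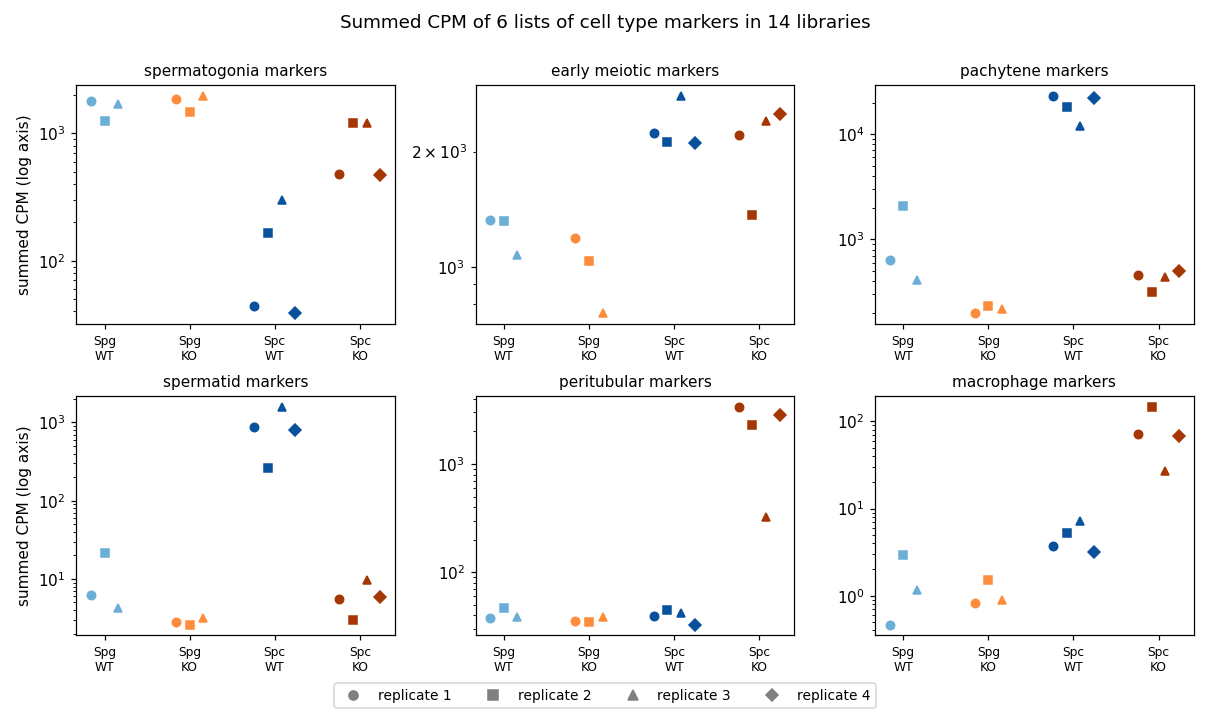
Summed CPM (y axes, log scale) of 6 lists of cell type markers in each of the 14 libraries, by group on the x axes; each symbol is 1 library and its shape gives the replicate. KO Spc lie near Spg for pachytene markers (318 to 497 CPM against 12033 to 23102 in WT Spc) and above all other groups for peritubular markers (321 to 3347 CPM).

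The start regions of the genes are shown first, as the sequences that go with the RNA levels below. RefSeq promoter entries on GRCm38.p6 matched 9 of the 10 genes. They held 13 to 38 CpG dinucleotides in their 300 bases, against a median of 7 over the 32851 promoters of that table. The longest stretch upstream of the start that lies outside every annotated exon follows for the 3 genes with the largest difference, 5′ to 3′ on the strand of the gene. Capitals mark matches, on either strand, to the E-box CACGTG, the E2F letters GGCGGGA and the NRF1 motif (its letters in upper case for Pld6 below). The MYB letters CAACTG were searched too, and no matches overlapped. The stretches are chr15:103430471-103430677 (minus strand) for Gtsf1, chr11:59787658-59787907 (minus strand) for Pld6 and chr1:166238748-166238994 (minus strand) for Mael.
Gtsf1: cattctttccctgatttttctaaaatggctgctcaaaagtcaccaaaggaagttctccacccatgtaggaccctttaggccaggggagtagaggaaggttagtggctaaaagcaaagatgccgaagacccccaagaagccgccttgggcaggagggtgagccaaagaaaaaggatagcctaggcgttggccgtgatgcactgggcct
Pld6: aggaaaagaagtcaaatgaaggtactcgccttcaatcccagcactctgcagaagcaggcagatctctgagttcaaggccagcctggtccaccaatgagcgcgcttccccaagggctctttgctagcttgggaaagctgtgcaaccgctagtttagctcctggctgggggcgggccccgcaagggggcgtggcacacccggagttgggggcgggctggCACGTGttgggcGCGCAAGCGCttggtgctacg
Mael: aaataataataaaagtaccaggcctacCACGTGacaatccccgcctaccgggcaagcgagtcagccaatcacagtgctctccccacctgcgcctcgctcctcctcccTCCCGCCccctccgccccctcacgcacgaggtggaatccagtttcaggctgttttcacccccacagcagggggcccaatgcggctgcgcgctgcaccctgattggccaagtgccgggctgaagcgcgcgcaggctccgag

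The printed stretch of Pld6 holds an E-box and an NRF1 match at positions -33 and -21 from the start, that of Mael an E-box at -223 and an E2F match, on the other strand, at -143, and that of Gtsf1 none of the letters searched. Over the whole promoters, the NRF1 motif was matched in 5 of the 9 genes (Mov10l1, Pld6, Henmt1, Asz1 and Gpat2) and in 6.23% of all promoters. The E-box was matched in 5 genes (Mael, Mov10l1, Pld6, Ddx4 and Fkbp6) and in 7.15% of all promoters, and the E2F letters in 3 genes (Mael, Gpat2 and Ddx4) and in 11.3%. The MYB letters CAACTG were matched in 1 gene, Fkbp6, and in 13.7% of all promoters. The NRF1, E-box and E2F letters each hold a CpG, and the shares over all promoters were not matched for CpG content. For Henmt1, the RefSeq start used lies 684 bases from the GENCODE start. The NRF1 motif was matched in 3 of the 6 genes that were lower in KO Spc and in 2 of the 3 genes with an entry that were not called there.

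In WT, 5 of the 10 genes were higher in Spc than in Spg and none was lower. The 5 genes were Gtsf1, Pld6, Mael, Henmt1 and Ddx4, and they differed by 2.52-fold (Ddx4) to 8.93-fold (Gtsf1). Of all features, 51.4% were called in this comparison and 28.9% were called higher in Spc, so the share of genes called is near the background. The median log2 difference of the 10 genes was 0.93, against 0.06 over all features. The groups did not overlap for 7 of the 10 genes, and for 65.2% of all features.

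Gtsf1 (chr15:103402405-103430470, minus strand, GRCm38) had 27.0, 39.3 and 19.7 CPM in the 3 WT Spg libraries and 323, 241, 176 and 284 CPM in the 4 WT Spc libraries. All WT Spc libraries were above all WT Spg libraries, and the log2 difference was 3.16 ± 0.37 (SE; adjusted p = 1.6e-05, edgeR). Pld6 (chr11:59783897-59787645, minus strand) had 29.1, 51.7 and 25 CPM in WT Spg and 275, 343, 162 and 261 CPM in WT Spc. The endonuclease gene thus followed Gtsf1 closely, with a log2 difference of 2.88 ± 0.40 (adjusted p = 4.8e-05). Mael (chr1:166201201-166238747, minus strand) went from 284, 387 and 257 CPM to 2384, 1985, 1292 and 2333 CPM, a log2 difference of 2.69 ± 0.26 (adjusted p = 7.8e-06). It was the most abundant of the 10 genes in WT Spc.

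Henmt1 (chr3:108939873-108960774, plus strand) had 23.8, 25.5 and 20.5 CPM in WT Spg and 110, 116, 59.4 and 110 CPM in WT Spc, and its log2 difference was 2.09 ± 0.36 (adjusted p = 2.3e-04). WT Spc replicate 3 was the low library here, as it was for Gtsf1, Pld6 and Mael, and it also had the lowest pachytene marker sum of WT Spc (12033 CPM). Ddx4 (chr13:112598333-112652475, minus strand) had 415, 492 and 434 CPM in WT Spg and 1094, 1171, 1045 and 1201 CPM in WT Spc. The helicase gene was already among the 3 highest per length in Spg and rose by less than the other 4 genes, by 1.34 ± 0.15 (adjusted p = 1.4e-05). With library totals in place of TMM, which moves the median of all genes by -0.78 in this comparison, Ddx4 was at 0.51 and not called (adjusted p = 0.0117), and the other 4 genes stayed called. Without WT Spg replicate 2, the 5 genes were also called (Gtsf1 3.34, Pld6 3.15, Mael 2.77, Henmt1 2.04 and Ddx4 1.29).

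The remaining 5 genes were not called between the WT stages. Gpat2 (chr2:127425199-127436092, plus strand) had 134, 192 and 172 CPM in WT Spg and 204, 321, 238 and 199 CPM in WT Spc. The groups did not overlap, but the log2 difference of 0.53 ± 0.25 missed the threshold (adjusted p = 0.0737), and it was -0.27 with library totals. Leaving out each library in turn gave 0.25 (without WT Spg replicate 1) to 0.63. Fkbp6 (chr5:135291704-135350044, minus strand) was lower in WT Spc in each library, with 265, 236 and 265 CPM in WT Spg and 71.2, 161, 165 and 65.4 CPM in WT Spc. Its log2 difference of -1.14 ± 0.36 just missed the threshold (adjusted p = 0.0120). Fkbp6 was called lower in most alternatives, among them DESeq2 (-1.18, adjusted p = 0.00354), library totals (-1.89, adjusted p = 0.00166) and the threshold of 0.05. It stayed uncalled in 5 of 22 alternatives. These were the fits without WT Spc replicate 1 (-0.96, adjusted p = 0.0371) or 4 (-0.94, adjusted p = 0.0348), without WT Spg replicate 1 (-1.28, adjusted p = 0.0143) or 3 (-1.27, adjusted p = 0.0137), and with Spc replicates 1 and 4 summed (-0.92, adjusted p = 0.0269). Pnldc1 (chr17:12888729-12910230, minus strand) at -0.55 ± 0.36, Mov10l1 (chr15:88982909-89055152, plus strand) at -0.15 ± 0.23 and Asz1 (chr6:18050964-18109061, minus strand) at 0.22 ± 0.23 had overlapping groups (adjusted p = 0.192, 0.569 and 0.423). With library totals they were at -1.33, -0.91 and -0.56 (adjusted p = 0.0116, 0.0112 and 0.103), beside a shift of -0.78 in the median of all genes. A small nuclear RNA gene lies within Mov10l1 on the same strand, so reads shared between them cannot be told apart.

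Per kilobase of merged exons, which allows genes to be compared, the order of the 10 genes changed between the WT stages. In WT Spg, Mael (179 ± 39.5 CPM per kb, SD, n = 3), Ddx4 (148 ± 13.4) and Fkbp6 (146 ± 9.66) were highest, with differences inside their spread. Mov10l1 (89.6 ± 3.18) and Gpat2 (63.2 ± 11.2) came next, then Gtsf1 (20.6 ± 7.10), Asz1 (20.6 ± 1.82), Pld6 (20.1 ± 8.19) and Pnldc1 (15.1 ± 2.44), and Henmt1 was lowest (8.71 ± 0.953). Gtsf1, Asz1 and Pld6 did not differ beyond their spread, nor did Pld6 and Pnldc1, while Asz1 and Pnldc1 differed by more than theirs. In WT Spc, Mael (1153 ± 290, n = 4) was followed by Ddx4 (374 ± 23.7), Gtsf1 (184 ± 45.4) and Pld6 (148 ± 42.5). The last pair did not differ beyond their spread, nor did Gpat2 (91.5 ± 21.4), Mov10l1 (80.5 ± 26.8) and Fkbp6 (65.9 ± 31.2), while Henmt1 (37.0 ± 9.94), Asz1 (23.9 ± 5.69) and Pnldc1 (10.3 ± 3.05) were lowest. The exonuclease gene Pnldc1 was thus the scarcest of the enzymes in WT Spc.

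**Figure D2:**
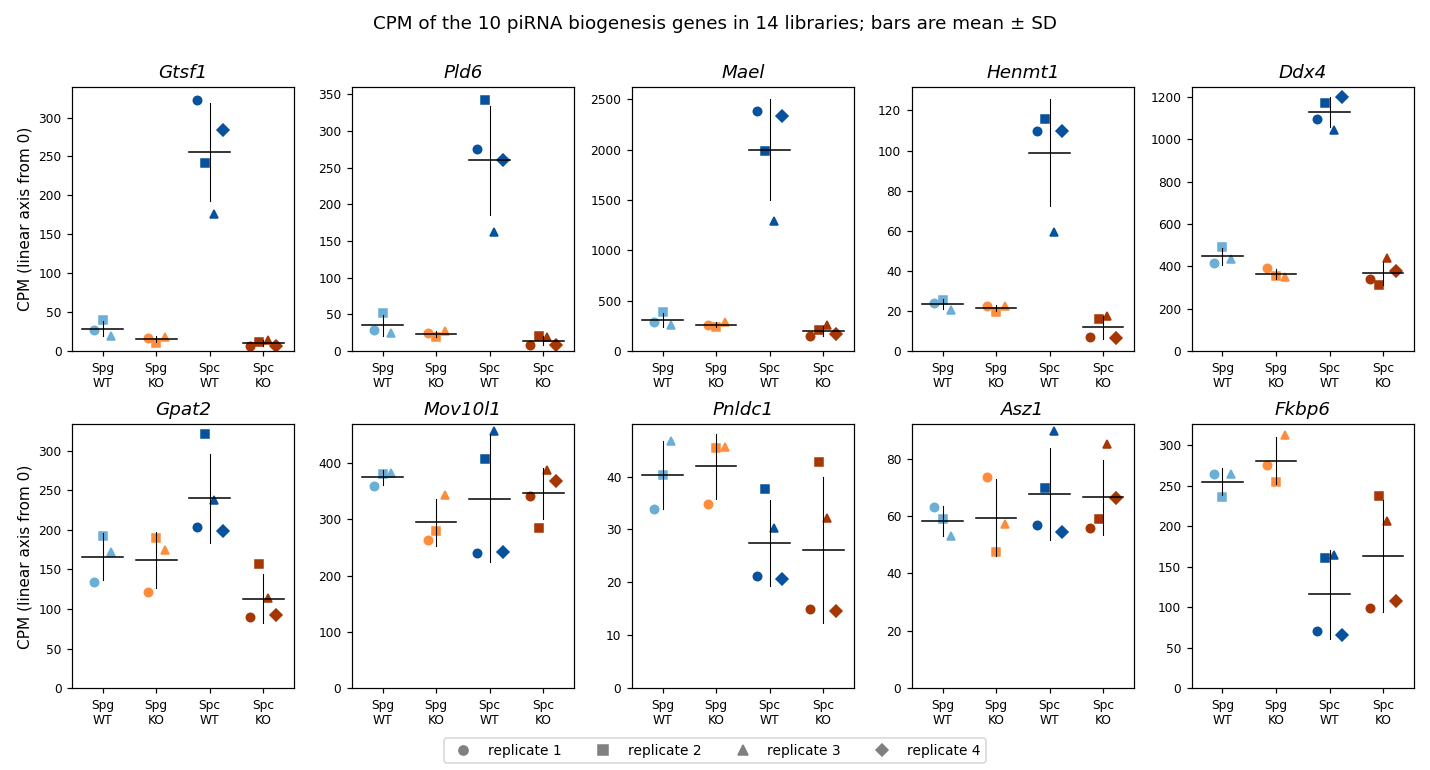
CPM (y axes, linear from 0) of the 10 genes in each of the 14 libraries, by group on the x axes; each symbol is 1 library, its shape gives the replicate, horizontal lines are group means and vertical lines 1 SD to either side. Gtsf1, Pld6, Mael, Henmt1 and Ddx4 stand apart in WT Spc (Mael 1292 to 2384 CPM against 154 to 387 CPM in all other libraries), while Mov10l1, Pnldc1, Asz1 and Fkbp6 overlap between KO and WT Spc.

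Between KO and WT Spg, none of the 10 genes was called. In Spg, edgeR called 0 of the 10 genes and DESeq2 also 0, against 0.0741% of all features with edgeR. An unadjusted p under 0.05 was found for 3 of the 10 genes and for 7.26% of all features. The median log2 fold change (KO over WT) was -0.21, against 0.02 over all features. KO and WT Spg did not overlap for 3 of the 10 genes, each lower in KO, against 11.9% of all features. With the replicate number as a block, the features called over the whole table went from 16 to 119 and the 10 genes stayed at 0 calls.

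Gtsf1 showed the largest difference in Spg, with 17.0, 10.6 and 18.7 CPM in KO against 27.0, 39.3 and 19.7 CPM in WT. Every KO library was below every WT library, but the log2 fold change of -0.94 ± 0.32 (95% confidence interval -1.68 to -0.19) had an adjusted p of 0.455 (edgeR). Without WT Spg replicate 2, the library with the high pachytene markers, it was -0.61 (adjusted p = 1.00). Pld6, at 24.1, 19.4 and 26.9 CPM in KO and 29.1, 51.7 and 25 CPM in WT, showed the same dependence: its log2 fold change was -0.63 ± 0.30 with that library and -0.21 without it. Mael went from -0.28 ± 0.19 to -0.05 in the same way. For Pld6 and Mael, most of the difference between genotypes in Spg came with this 1 WT library, and for Gtsf1 a part of it.

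Mov10l1 had 264, 279 and 343 CPM in KO Spg and 359, 381 and 383 CPM in WT Spg. The groups did not overlap, and the log2 fold change was -0.38 ± 0.14 (adjusted p = 0.491) with all libraries and -0.33 without WT Spg replicate 2. Ddx4 was also without overlap, at 393, 356 and 350 CPM in KO and 415, 492 and 434 CPM in WT (log2 fold change -0.32 ± 0.13, adjusted p = 0.576; -0.22 without that library). Henmt1 (-0.15 ± 0.18), Gpat2 (-0.07 ± 0.20), Asz1 (-0.01 ± 0.19), Pnldc1 (0.03 ± 0.18) and Fkbp6 (0.11 ± 0.12) overlapped between genotypes. Without WT Spg replicate 2 they were at -0.05, 0.08, 0.03, 0.05 and 0.08 in the same order. With all libraries, their 95% confidence intervals lay within -0.57 and 0.44, on the log2 scale.

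In Spc, 6 of the 10 genes were lower in KO and none was higher. Gtsf1, Pld6, Mael and Henmt1 were lower by 8.29-fold to 25.3-fold, Ddx4 by 3.02-fold and Gpat2 by 2.09-fold, while Mov10l1, Pnldc1, Asz1 and Fkbp6 were not called. Of all features, 57.4% were called in this comparison and 30.1% were lower in KO. KO and WT Spc did not overlap for these 6 genes, as for 67.5% of all features. The median log2 fold change of the 10 genes was -1.33, against 0.11 over all features.

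Among the processing enzymes, Pld6 had 8.57, 20.2, 19.1 and 8.59 CPM in KO Spc against 275, 343, 162 and 261 CPM in WT Spc. The highest KO library was thus far below the lowest WT library, and the log2 fold change was -4.18 ± 0.39 (adjusted p = 1.8e-05, edgeR). Henmt1 had 7.24, 15.8, 17.7 and 6.54 CPM in KO and 110, 116, 59.4 and 110 CPM in WT (log2 fold change -3.05 ± 0.40, adjusted p = 1.3e-04). The methyltransferase gene was the scarcest of the 10 per length in KO Spc, at 4.42 ± 2.15 CPM per kb (SD, n = 4). Gtsf1, the PIWI partner, had the largest fold change: 6.69, 12.1, 14.4 and 6.92 CPM in KO and 323, 241, 176 and 284 CPM in WT, or -4.66 ± 0.36 (adjusted p = 6.2e-06).

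Mov10l1 and Pnldc1, which also act on piRNA precursors and their ends, were not called. Mov10l1 had 342, 285, 388 and 368 CPM in KO Spc and 241, 408, 457 and 242 CPM in WT Spc, so the KO values lay inside the range of WT (log2 fold change 0.07, 95% confidence interval -0.46 to 0.60, adjusted p = 0.799). Pnldc1 had 15, 42.7, 32.2 and 14.6 CPM in KO and 21.2, 37.7, 30.3 and 20.7 CPM in WT (log2 fold change -0.04, interval -0.91 to 0.82, adjusted p = 0.928). The interval of Pnldc1 is wide, and differences up to those bounds cannot be told from 0 with these libraries.

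Among the genes of nuage and mitochondrial surface, Mael fell from 2384, 1985, 1292 and 2333 CPM in WT Spc to 154, 212, 259 and 174 CPM in KO Spc, a log2 fold change of -3.31 ± 0.29 (adjusted p = 1.2e-05). Even so, Mael at 115 ± 26.6 and Ddx4 at 122 ± 18.1 CPM per kb (SD, n = 4) stood highest per length in KO Spc, followed by Fkbp6 (92.9 ± 39.5) and Mov10l1 (82.7 ± 10.7). Mael, Ddx4 and Fkbp6 did not differ beyond their spread. Ddx4, a germ cell gene expressed in both stages, had 342, 313, 439 and 378 CPM in KO and 1094, 1171, 1045 and 1201 CPM in WT (log2 fold change -1.60 ± 0.19, adjusted p = 7.0e-05). Gpat2 had 89.3, 157, 114 and 92.0 CPM in KO and 204, 321, 238 and 199 CPM in WT (-1.06 ± 0.24, adjusted p = 0.00257). The call of Gpat2 was the least firm of the 6: it was lost without KO replicate 1 (adjusted p = 0.0104) or KO replicate 4 (0.0101), with replicates 1 and 4 summed (-1.04, adjusted p = 0.0148) and with library totals (-0.36, adjusted p = 0.291). Asz1, at 55.9, 59.0, 84.9 and 66.4 CPM in KO and 56.9, 69.9, 89.7 and 54.5 CPM in WT, had a log2 fold change of 0.00 (interval -0.50 to 0.50, adjusted p = 0.992).

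Fkbp6, the co-chaperone gene, had 99.6, 237, 206 and 108 CPM in KO Spc and 71.2, 161, 165 and 65.4 CPM in WT Spc. The genotypes overlapped (log2 fold change 0.53 ± 0.38, adjusted p = 0.234), and within both genotypes replicates 1 and 4 were low and replicates 2 and 3 high. With replicates 1 and 4 summed, 5 of the 10 genes were called, all of the 6 but Gpat2, against 38.2% of all features. Within replicates 1 and 4 alone, the log2 fold change was 0.62 for Fkbp6, 0.57 for Mov10l1 and -0.48 for Pnldc1. No call is read from this pair, since it was picked for its likeness and 83.4% of all features passed the threshold in it. Within replicates 2 and 3 alone, Gtsf1, Pld6, Mael and Henmt1 were called, 4 of the 10 genes against 23.2% of all features, while Ddx4 (-1.53, adjusted p = 0.0163) and Gpat2 (-1.01, adjusted p = 0.0415) were not. Mov10l1 was at -0.33 and Pnldc1 at 0.17 there, so their direction differed between the pairs of replicates. Testing these pairs of replicates alone was chosen after the data were seen.

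The scaling set the zero point in Spc. TMM factors were 0.605 to 0.851 in WT Spc and 1.05 to 1.24 in all other libraries, and with library totals the median of all genes moved from 0.11 to 0.79. On that scale Gtsf1 (-3.89), Pld6 (-3.41), Mael (-2.55), Henmt1 (-2.27) and Ddx4 (-0.89) were still called lower in KO Spc. Mov10l1 (0.70), Pnldc1 (0.66), Asz1 (0.65) and Fkbp6 (1.18) were above 0 there, but near or below that median apart from Fkbp6, and none was called.

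**Figure D3:**
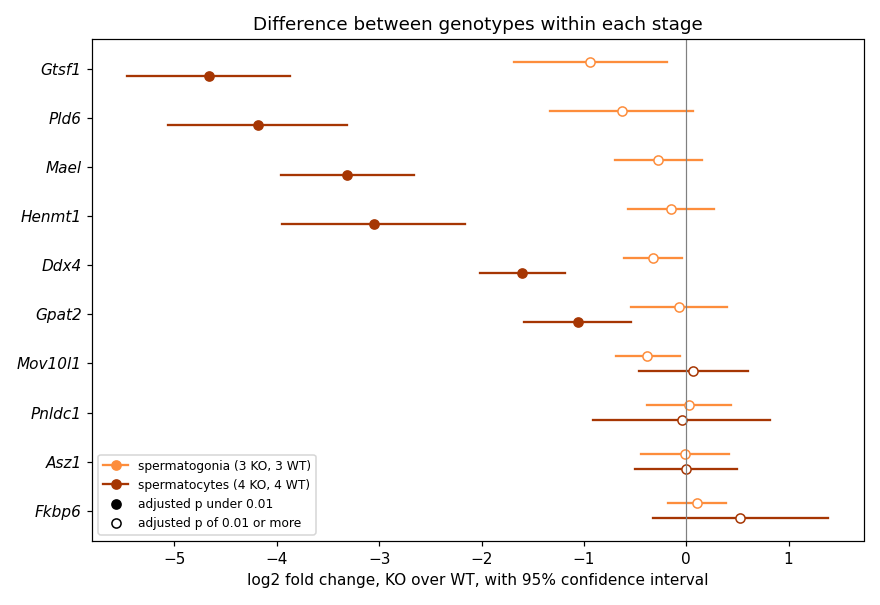
log2 fold change of KO over WT (x axis) with 95% confidence intervals for the 10 genes (y axis), in Spg (3 KO, 3 WT libraries) and Spc (4 KO, 4 WT libraries); filled points have an adjusted p under 0.01. The 6 filled points are all in Spc, from -4.66 (Gtsf1) to -1.06 (Gpat2), and the 10 points of Spg are all open.

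The difference between the genotypes was itself tested between the stages. The change in KO was more negative in Spc than in Spg for 5 of the 10 genes and more positive for none, with 24.9% of all features called and 14.3% called in the negative direction. The log2 differences (Spc minus Spg) were -3.78 ± 0.48 for Gtsf1, -3.62 ± 0.52 for Pld6, -3.09 ± 0.34 for Mael, -2.95 ± 0.49 for Henmt1 and -1.33 ± 0.21 for Ddx4 (adjusted p = 1.8e-04, 3.0e-04, 1.5e-04, 6.5e-04 and 4.7e-04, edgeR). Gpat2, at -1.05 ± 0.35, was not called (adjusted p = 0.0257). It passed with DESeq2 (-1.08, adjusted p = 0.00919) and was at -0.31 (adjusted p = 0.553) with library totals. Ddx4 was not called with library totals (-0.59, adjusted p = 0.0429). Without WT Spg replicate 2, the 5 genes were called again, at -4.03, -3.95, -3.23, -2.97 and -1.35 in the order above. Mov10l1 (0.38 ± 0.32), Fkbp6 (0.36 ± 0.51), Asz1 (-0.05 ± 0.32) and Pnldc1 (-0.13 ± 0.51) were not called.

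In KO, none of the 10 genes was called between Spc and Spg. edgeR called 0 of the 10 genes and DESeq2 0, against 2.99% of all features with edgeR (747 higher and 9 lower in Spc). An unadjusted p under 0.05 was found for 2 of the 10 genes and for 24.5% of all features. The log2 differences (KO Spc minus KO Spg) ran from -0.86 ± 0.34 (Henmt1, adjusted p = 0.134) to 0.23 ± 0.23 (Mov10l1), with a median of -0.57 against 0.05 over all features. The groups did not overlap for Henmt1 and Fkbp6, against 26.2% of all features. Of the 5 genes called between the WT stages, Gtsf1 was at -0.62, Pld6 at -0.73, Mael at -0.40 and Ddx4 at 0.01 between the KO stages, none of them called. The 95% confidence interval of Ddx4, -0.31 to 0.32, did not reach its WT difference (1.34). The WT comparison and the KO comparison share no library, but each shares libraries with both comparisons of genotype.

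Over the 4 groups, 7 of the 10 genes had their highest mean in WT Spc, and 5 (Mael, Pld6, Gtsf1, Henmt1 and Gpat2) had the order WT Spc, WT Spg, KO Spg, KO Spc. For Mael, Pld6 and Gpat2, the last 3 groups overlapped each with the next. For Mov10l1, Pnldc1, Asz1 and Fkbp6, every group overlapped with the next in the order, and the highest and the lowest mean differed by 1.16-fold (Asz1) to 2.43-fold (Fkbp6), against 25.6-fold for Gtsf1.

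**Figure D4:**
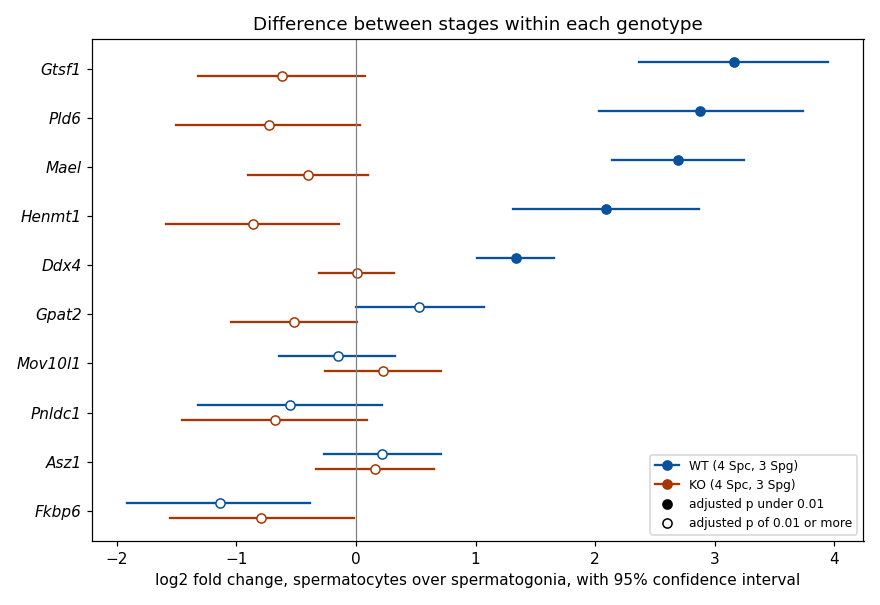
log2 fold change of Spc over Spg (x axis) with 95% confidence intervals for the 10 genes (y axis), in WT and in KO (4 Spc and 3 Spg libraries each); filled points have an adjusted p under 0.01. The filled points are the 5 WT values from 1.34 (Ddx4) to 3.16 (Gtsf1), while the KO values lie between -0.86 (Henmt1) and 0.23 (Mov10l1).

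The levels of Gtsf1, Pld6, Mael, Henmt1 and Ddx4, the genes called higher in WT Spc than in WT Spg, ran together across the 14 libraries. These genes were grouped by calls from the same libraries, so a high likeness over all 14 follows in part from that choice. Their pairwise Pearson r of log2(CPM + 0.5) was 0.91 to 0.99 over 14 libraries, and 0.43 to 0.97 over the 10 libraries other than WT Spc, so part of the likeness rests on WT Spc standing apart. Against Mov10l1, Pnldc1, Asz1 and Fkbp6, their r was -0.59 to 0.24, while Pnldc1 and Fkbp6 were alike (r = 0.84). Gpat2 was in neither of these sets. Its r was 0.70 (Ddx4) to 0.84 (Pld6 and Henmt1) with the first set and -0.03 (Asz1) to 0.47 (Pnldc1) with the second. Among 16908 genes with a mean of at least 1 CPM, the 3 with the most similar levels were Tcfl5, Grtp1 and 1700037H04Rik for Mael (r = 0.997 to 0.999; Tcfl5 is also on the pathway list below), Lef1, C8b and Pxt1 for Gtsf1 (0.993 to 0.995) and Dnaaf2, Klhl35 and C8b for Pld6 (0.992 to 0.994). They were Chd1l, Ralgds and Nup62 for Henmt1 (0.992 to 0.995), Ttc21b, Fam107b and Zfp955a for Ddx4 (0.991 to 0.993) and Pigs, Actr5 and Acd for Gpat2 (0.970 to 0.972). For the genes that were not called in Spc, they were Tusc2, Ppif and Rpa2 for Fkbp6 (0.980), Traip, Hmga1 and Tbl3 for Pnldc1 (0.971 to 0.978), Mettl5, Ublcp1 and Topbp1 for Mov10l1 (0.880 for the first) and Ndufaf1, Poli and Fgfr1op for Asz1 (0.755 to 0.804). The libraries share stage, genotype and sort, so these values describe the 14 libraries.

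The other genes of the pathway, a list of 28 with PIWI proteins, Tudor proteins and regulators, were counted beside the 10. In Spg, edgeR called 0 of 27 tested between KO and WT (10 at an unadjusted p under 0.05, against 7.26% of all features; DESeq2 called 2 lower), with a median log2 fold change of -0.35 (-0.22 without WT Spg replicate 2, and 0 called). In Spc, 17 of 26 were lower in KO, against 30.1% of all features, and 2 were higher, with a median of -1.61 against 0.11 over all features. With library totals, 12 were lower and 3 higher, with a median of -0.92. The number higher was not stable: it was 1 without KO replicate 2, KO replicate 3 or WT replicate 4, 4 without WT replicate 3, and 0 in replicates 2 and 3 alone, where 13 of 27 were lower. The largest falls were those of Tdrd6 (-9.15 ± 0.92, adjusted p = 2.7e-05), a Tudor protein of the chromatoid body, and Piwil1 (-7.57 ± 0.35, adjusted p = 2.5e-06), the PIWI protein of pachytene piRNAs. The 2 that were higher were Tex15 (2.54 ± 0.41, adjusted p = 3.9e-04), which acts in piRNA-directed methylation of fetal germ cells, and Btbd18 (2.23 ± 0.57, adjusted p = 0.00570), a nuclear protein needed at pachytene piRNA loci. The falls of the 10 genes were smaller than these, the largest being that of Gtsf1. Between the KO stages 0 of 27 were called by edgeR (5 at an unadjusted p under 0.05, against 24.5% of all features; DESeq2 called 1 higher), as for the 10 genes.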

How the data were processed

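RNA of sorted spermatogonia and spermatocytes was sequenced from stranded libraries of polyadenylated RNA. Adapters were removed with cutadapt 4.0 and reads aligned by the authors with STAR 2.7.3a on GRCm38, per the submitters' processing notes, and the authors assigned them to GENCODE genes and transposon subfamilies with TEtranscripts, counting by strand and including reads with several alignments. The deposited values used here are raw counts per gene and per transposon subfamily. The log2 fold changes and p-values in the deposited tables come from the authors' own DESeq2 1.44.0 comparison, and neither these nor the TPM values that the authors deposited for single transposon copies were used. A further spermatogonia library per genotype, excluded by the authors for low RNA quality, was not analysed here. The spermatogonia columns numbered 4 belong to the samples titled replicate 3.

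Counts were analysed with edgeR 4.0.16 in R 4.3.3 (filterByExpr, TMM factors over genes and subfamilies, glmQLFit and glmQLFTest). Each stage was fitted alone for KO against WT, and comparisons between stages used 1 fit of all 14 libraries in 4 groups. Standard errors are the log2 fold change over the square root of the F statistic, and confidence intervals (95%) use the t distribution of the fit. The scripts were tested on simulated data. CPM values come from the fit of all 14 libraries, whose TMM factors differ slightly from those of each stage. The study calls its replicates biological and collected littermates, but the labels tie no library to an animal, so p-values measure the spread between these libraries, part of which may be technical. Spermatogonia libraries of the same number deviated together from their group means (r = 0.73, 0.17 and 0.28, all above 0.1), although KO replicate 2 was more like WT replicate 3 (r = 0.31). Spermatocyte libraries did not (r = 0.08, 0.23, -0.04 and 0.13). No label pairs the libraries, so the main tests used no pairing. The replicate number entered only as a block in an alternative.

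The text names all 10 genes in every comparison, Dnmt3c as the targeted gene and, of the other pathway genes, up to 4 called genes per genotype comparison, the 2 most increased and the 2 most decreased. The 3 genes most alike to each of the 10 are named too. The genes, the lists and the marker genes were chosen with earlier results of these data known. Marker lists covered germ cells (spermatogonia to spermatids), supporting and interstitial cells of the testis and blood cells. Gene positions and merged exon lengths come from GENCODE M21 (GRCm38) and promoters, from 250 bases before to 50 after the start, from RefSeq. Motifs were searched on both strands. Alternatives were DESeq2 1.42.0 (Wald test), its size factors, library totals, no filter, an adjusted p under 0.05, the replicate number as a block, genes without subfamilies, spermatocyte replicates 1 and 4 summed, each library left out in turn and, chosen after the data were seen, pairs of spermatocyte replicates alone. Plots were drawn with matplotlib 3.10.9.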

Additional observations from a re-analysis of the deposited data

Results flagged for a closer look

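The difference between KO and WT was not the same in both stages for 5 of the 10 genes, by the test of the interaction in the fit of all 14 libraries (edgeR), which called 24.9% of all features and 14.3% in the negative direction. The log2 difference of the genotype effect, spermatocytes minus spermatogonia, was -3.78 for Gtsf1, -3.62 for Pld6, -3.09 for Mael, -2.95 for Henmt1 and -1.33 for Ddx4, which was not called with library totals (-0.59, adjusted p = 0.0429). Over all libraries left out in turn, these values ran from -4.03 to -3.50, -3.95 to -3.34, -3.27 to -2.90, -3.15 to -2.68 and -1.38 to -1.17.

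In WT Spc, the Henmt1 level of replicate 3 (59.4 CPM) lay far from those of the other 3 replicates (110, 110 and 116 CPM), with a gap of 0.885 of the range. This is 1 of 20 groups of 4 libraries looked at, and chance alone marks about 1 in 20. The same library had the lowest pachytene marker sum of WT Spc (12033 CPM) and the highest spermatid marker sum (1564 CPM), and whether these values are related was not tested.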

How the results depend on the processing

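Under the alternatives, 882 of 970 log2 fold changes of single genes kept their direction and their side of the threshold, 8 lost and 25 gained a call, and 55 changed sign; 0 of these 55 were values called in their comparison. The number of the 10 genes called stayed at 0 in Spg, 5 to 6 in Spc, 5 to 6 between the WT stages, 0 between the KO stages and 5 for the difference between stages when each library was left out in turn. The replicate number as a block changed no call of KO against WT. Between stages it gave 1 call in KO (Fkbp6, -0.88, adjusted p = 0.00974), 2 more calls in WT (Gpat2, 0.52, adjusted p = 0.00953; Fkbp6, -1.27, adjusted p = 1.3e-04) and the call of Gpat2 in the difference between stages (-1.05, adjusted p = 0.00429). These gains rest on a block without support, since animals of the 2 stages share only a number and no pairing across stages was tested. In neither stage did every library deviate most like the library of its own number.

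The following values, not called in their comparison, changed sign, and the cause was not tested. With library totals, Asz1 was at 0.01 in Spg and Pnldc1 at 0.66 in Spc, Asz1 at -0.56 and Gpat2 at -0.27 between the WT stages, Ddx4 at -0.08 between the KO stages, and Pnldc1 at 0.61 and Asz1 at 0.64 in the difference between stages. With spermatocyte replicates 1 and 4 summed, Mov10l1 was at -0.06 and Pnldc1 at 0.04 in Spc, and Mov10l1 at 0.02 between the WT stages. With spermatocyte replicates 2 and 3 alone, Mov10l1 was at -0.33 and Pnldc1 at 0.17. Ddx4 between the KO stages was at -0.02 with DESeq2, with its size factors and with genes alone, and at -0.05 with no filter. Asz1 in the difference between stages was at 0.03 with no filter and 0.04 with genes alone. Leaving out each library gave ranges of -0.10 to 0.16 (Pnldc1), -0.17 to 0.13 (Asz1) and -0.22 to 0.12 (Gpat2) in Spg, -0.08 to 0.25 (Mov10l1) and -0.37 to 0.16 (Pnldc1) in Spc, -0.04 to 0.29 (Asz1) and -0.14 to 0.03 (Ddx4) between the KO stages, and -0.38 to 0.15 (Pnldc1) and -0.16 to 0.21 (Asz1) in the difference between stages.

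Over all features, calls in Spg numbered 16, against 538 with DESeq2, 157 with no filter, 119 with the block, 68 at an adjusted p under 0.05 and 2 with genes alone. Between the KO stages they numbered 756, against 2414 with DESeq2, 2108 at an adjusted p under 0.05 and 349 with replicates summed. For the difference between stages they numbered 6314, against 9995, 11350 and 3543. In Spc they numbered 13124, against 20243 (83.4%) for replicates 1 and 4 alone, the pair picked for its likeness, and 5503 (23.2%) for replicates 2 and 3 alone.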
